A study of Mus musculus with 16 samples.

Results

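The arrays described here are those of liver from TTR::Fv2E-PERK mice, 8 of the 16 arrays of the series. They were chosen by their labels, 4 as AP20187-treated and 4 as untreated, and all 22626 probe sets other than the controls were analysed. The source name of AP20187 replicate 4 is only a letter, and that of 1 low fat diet array names both wildtype and Alb::GC, so both were placed by their descriptions. Without AP20187 replicate 4, 1453 genes were higher and 2386 lower (1651 and 2653 with it). The mice were male, of the FvB/n strain, and came from a line that expresses the transgene highly, so every array of both groups carries it. The promoter of transthyretin (TTR), a protein secreted mainly by hepatocytes, drives the transgene. The labels call the control mice untreated, while the series design speaks of a mock injection. The dose of AP20187, the time from injection to sampling and the age of the mice are not stated in any source used here. No label ties each array to a separate mouse, so the tests measure the spread between these arrays, which may be technical. Mice lacking Atf4, which the design text also mentions, were not analysed here. The other 8 arrays hold liver of wildtype and Alb::GC mice (which carry a GADD34 fragment under the albumin promoter) on a low or a high fat diet, and serve below only as a contrast.

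PERK is a kinase of the endoplasmic reticulum (ER) membrane that senses unfolded protein and phosphorylates the translation factor eIF2α. Phosphorylated eIF2 slows the start of most translation but favours that of a few messenger RNAs, among them that of the transcription factor ATF4, and the programme that follows is called the integrated stress response (ISR). Fv2E-PERK joins the kinase domain to drug-binding modules, and AP20187, a small molecule that bridges those modules, brings the kinase domains together and so turns the kinase on without unfolded protein. In liver, a secretory organ with a dense ER, the other arms of the unfolded protein response run through IRE1 and ATF6, which raise chaperones and components of glycosylation and degradation.

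Each deposited value is a ratio on a linear scale around 1, and what it was taken against is unknown here. A ratio of this kind has no absolute level, so genes cannot be ranked by abundance and the tissue cannot be checked by the level of its markers. Differences below are AP20187 minus untreated means of log2(ratio + 0.05) with their standard errors, and a gene passed when its Benjamini-Hochberg adjusted p from limma was under 0.05. Each gene stands for the probe set with the highest mean ratio, a choice that does not rank probes by abundance and leans towards lower differences. Of 4956 genes with more than 1 probe set, the chosen one lay below the mean of the others in 2814 (56.8%), with a median difference of -0.13 against -0.09. With the probe set of smallest spread, 1863 genes were higher and 2809 lower. Of 107 named genes with more than 1 probe set, 27 had another with another call. The value 1 was not the untreated state. Of the genes that were lower with AP20187, 73.3% had a mean AP20187 ratio between 0.8 and 1.25, and 22.6% had a mean untreated ratio in that window. Log2 values correlated at 0.56 to 0.66 between untreated arrays, at 0.44 to 0.62 between AP20187 arrays and at 0.26 to 0.34 across the groups. The first principal component held 37.6% of the variance and placed the untreated arrays at -64.4 to -48.6 and the AP20187 arrays at 48.0 to 60.5.

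Markers of other liver cells and control probe sets moved with the treatment in part, and their share in the results below was not tested. The log2 difference between the 3' and 5' probe sets of beta-actin lay at -0.18 to -0.02 in the untreated arrays and at -0.04, 0.15, 0.15 and 0.15 in the AP20187 arrays (exact permutation test, two-sided p = 0.0571, where the smallest possible was 0.0286). The same measure for Gapdh lay at -0.06 to -0.01 in the untreated arrays, at -0.14 to -0.10 in AP20187 replicates 1, 2 and 4 and at 0.19 in replicate 3 (p = 1.0 by the same exact test). Of 12 stellate cell and fibroblast markers, 7 fell, and their mean log2 value lay at 0.60 to 0.82 in the untreated arrays and at -0.09 to 0.01 in the AP20187 arrays. Of 12 macrophage markers, 6 fell and 1 (Cd163) rose, with means of 0.21 to 0.34 and of -0.26 to 0.11. Of 10 endothelial markers 3 fell, and of 9 hepatocyte markers 6 fell. Over all genes 21.4% fell. After quantile normalization the lower markers were 5 stellate and fibroblast, 5 macrophage, 2 endothelial and 4 hepatocyte markers. No cholangiocyte, neutrophil or adipocyte marker passed (6, 9 and 4 measured). At an unadjusted p under 0.05 by limma, 1 cholangiocyte and 3 neutrophil markers were lower and none of the adipocyte markers differed. Of 11 lymphocyte markers Ms4a1 fell, of 7 exocrine pancreas markers Cela1 fell, and of 3 erythroid markers Slc4a1 rose. The other Slc4a1 probe sets, at 1.11 and 0.02, did not pass, nor did the other Ms4a1 probe set, at -1.19. No lymphocyte marker was lower after quantile normalization, and no erythroid marker passed with the probe set of smallest spread. No marker was listed at 0. In whole liver RNA, fewer cells of a type and less RNA per cell cannot be told apart.

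With AP20187, 1651 of 12393 genes (13.3%) were higher and 2653 (21.4%) were lower, so 34.7% passed either way and 38.4% of those were higher. Over probe sets, 13.7% were higher and 20.4% lower. That split depends on scaling. After quantile normalization 1870 genes were higher and 1992 lower, which puts 48.4% of them on the higher side. The larger changes were mostly rises: 152 genes rose by at least 2 on the log2 scale and 67 fell by as much. At least 2-fold, the counts were 618 higher (4.99%) and 682 lower (5.5%). The median difference over all genes was -0.15.

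**Figure D1:**
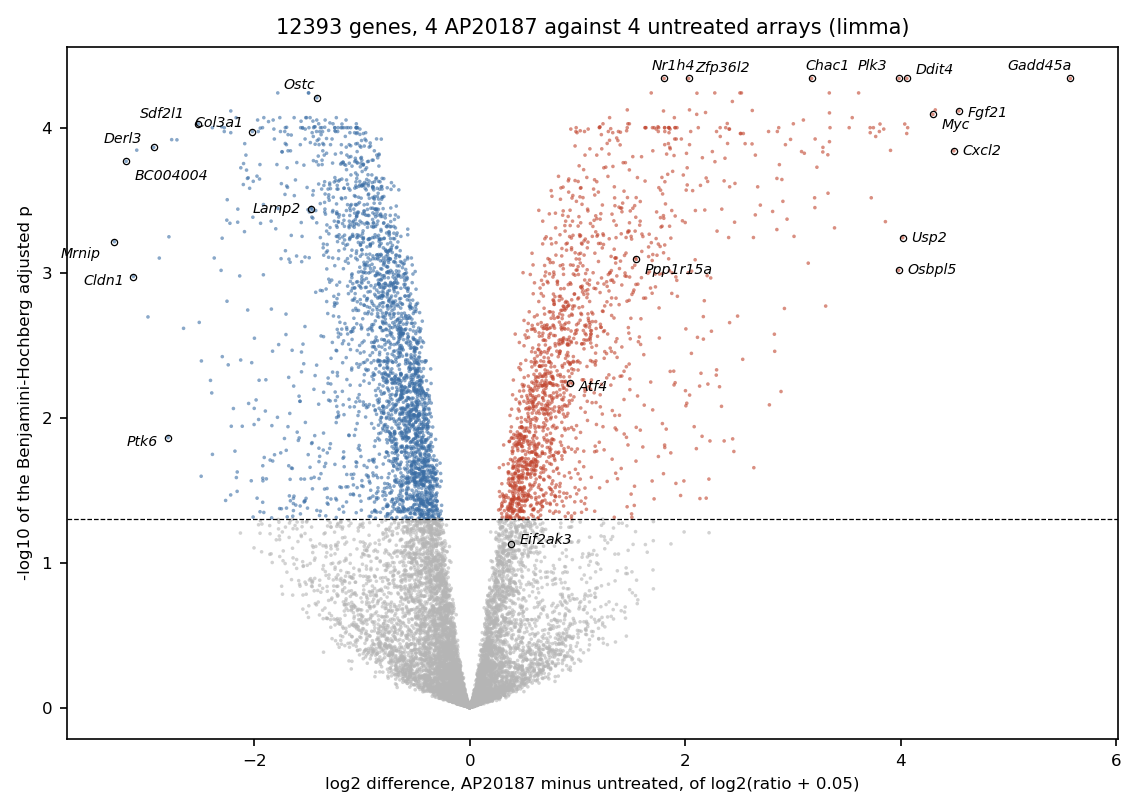
Each point is a gene, with the log2 difference between 4 AP20187 and 4 untreated arrays on the horizontal axis and -log10 of the adjusted p (limma) on the vertical axis. Red points are the 1651 higher genes, blue the 2653 lower and grey those that did not pass the dashed line at 0.05, and circles mark genes named in the text, from Gadd45a at 5.57 to Mrnip at -3.30.

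The 15 largest rises were those of Gadd45a, Fgf21, Cxcl2, Atf3, Myc, Cxcl10, Ddit4, Cxcl1, Hcar2, Usp2, Plk3, Osbpl5, Tnfrsf12a, Wee1 and Krt23, from 5.57 to 3.84. Gadd45a, which slows the cell cycle after damage, had untreated ratios of 0.02, 0.03, 0.02 and 0.02 and AP20187 ratios of 3.28, 3.51, 3.09 and 3.73. The kinase gene Plk3 was at 0.2, 0.13, 0.22 and 0.22 in the untreated arrays and at 3.82, 3.38, 3.72 and 4.06 with AP20187, a rise of 3.98 ± 0.16 (adjusted p = 4.56e-05). Hcar2, a receptor for nicotinic acid and ketone bodies, went from 0.39, 0.52, 0.25 and 0.33 to 7.02, 9.07, 4.13 and 7.64 and rose by 4.04 ± 0.28. In all 3 genes every treated array stood far above every untreated array. The size of a change from ratios this low depends on the offset: Gadd45a rose by 5.57 ± 0.22, by 6.72 with an offset of 0.01 and by 4.01 with 0.2. Tnfrsf12a, the receptor of the cytokine TWEAK, went from 0.05, 0.02, 0.01 and 0.01 to 0.82, 1.18, 1.43 and 0.75, a rise of 3.90 ± 0.34 that became 5.13 and 2.45 with those offsets. Myc, a transcription factor of cell growth, went from 0.03, 0.04, 0.03 and 0.04 to 1.33, 1.61, 1.94 and 1.65 and rose by 4.30 ± 0.26. The keratin Krt23 rose by 3.84 ± 0.29, the cell cycle kinase Wee1 by 3.86 ± 0.44 and the ubiquitin protease Usp2 by 4.02 ± 0.49. Osbpl5, a lipid transfer protein, showed the widest spread of these genes, with AP20187 ratios of 11.03, 10.31, 3.12 and 13.31 against untreated ratios of 0.91, 0.31, 0.66 and 0.27, and still did not overlap between groups (3.98 ± 0.54, adjusted p = 0.000960).

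The 15 largest falls ran from -3.30 to -2.49. Cldn1, a protein of tight junctions, had untreated ratios of 9.38, 9.41, 8.2 and 8.99 and AP20187 ratios of 1.04, 0.71, 0.96 and 1.34, and fell by 3.12 ± 0.43. Its 3 other probe sets ranged from -2.62 to -0.27, and 2 of them did not pass. The retinol dehydrogenase Rdh11 went from 5.92, 7.92, 5.73 and 8.96 to 1.05, 0.63, 0.77 and 0.72, a fall of 3.09 ± 0.26. Ethe1, a mitochondrial enzyme of sulfide breakdown, went from 6.25, 5.54, 4.98 and 7.3 to 1.0, 0.78, 0.72 and 0.99 and fell by 2.72 ± 0.22. Fabp2, a fatty acid binding protein, went from 6.39, 5.03, 5.62 and 7.08 to 1.01, 0.64, 0.97 and 0.78 and fell by 2.77 ± 0.23. In each of these 4 genes all untreated arrays were at 4.98 or above and all AP20187 arrays at 1.34 or below. Mrnip fell by 3.30 ± 0.40. Abca2, an ABC transporter, fell by 2.99 ± 0.47. Also among the 15 largest falls were BC004004, Npas2, Wt1, Mmd2, Mt3, Clec2m and Ptk6, at -3.19 to -2.49. Ptk6 rests on widely spread AP20187 ratios of 0.16, 1.11, 0.16 and 0.05 against 1.84, 2.28, 1.85 and 1.38, and its adjusted p was 0.0137.

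Genes known as effectors of the ISR rose nearly throughout. Of 21 measured members, 16 rose, 1 fell and 4 did not pass, with a median difference of 1.40 against -0.15 over all genes. Atf4, whose protein drives the programme, had untreated ratios of 0.54, 0.43, 0.41 and 0.64 and AP20187 ratios of 0.99, 0.89, 1.01 and 1.1, a rise of 0.93 ± 0.19 (adjusted p = 0.00573), while 2 other Atf4 probe sets at 0.52 and 0.04 did not pass. Ddit3, the gene of the stress factor CHOP, went from 0.06, 0.05, 0.07 and 0.06 to 0.98, 1.15, 1.33 and 0.84 and rose by 3.34 ± 0.27. Trib3, a pseudokinase that restrains ATF4, was at 0.03, 0.04, 0.04 and 0.04 and then at 0.96, 1.03, 1.51 and 0.97, a rise of 3.72 ± 0.28. For these 3 genes no treated array overlapped an untreated one, and the rise of the messenger was smallest for Atf4 itself.

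Chac1, which breaks down glutathione, had untreated ratios of 0.27, 0.28, 0.27 and 0.22 and AP20187 ratios of 2.55, 3.21, 2.81 and 2.44, a rise of 3.17 ± 0.13 (adjusted p = 4.56e-05). Atf3, a stress transcription factor, was at 0.01, 0.01, 0.01 and 0.01 and then at 1.03, 1.18, 1.3 and 1.1, so its untreated values were all at the smallest ratio given. Its fitted difference of 4.32 ± 0.25 became 5.86 with an offset of 0.01 and 2.68 with 0.2, and is no bound. Nupr1, a small stress-induced chromatin protein, went from 0.02, 0.01, 0.03 and 0.03 to 0.98, 1.02, 1.2 and 0.62. In these 3 genes every treated array stood above every untreated array, and Atf3 and Nupr1 were at 0.03 or below in all untreated arrays. Sesn2, a sestrin that restrains mTORC1, went from 0.23, 0.33, 0.27 and 0.19 to 1.91, 2.05, 1.53 and 1.45 and rose by 2.56 ± 0.21. Ddit4, which also restrains mTORC1, went from 0.2, 0.23, 0.19 and 0.31 to 5.4, 3.63, 4.29 and 5.27 and rose by 4.06 ± 0.17. Asns, asparagine synthetase, is a further target outside this list and went from 0.29, 0.35, 0.37 and 0.22 to 0.99, 1.01, 1.28 and 1.1, a rise of 1.69 ± 0.22, while its other probe set rose by 3.40. Stc2, a secreted stanniocalcin, was the only member to fall, by 0.51 ± 0.17 (adjusted p = 0.0457). Another Stc2 probe set stood at 0.84 with another call. The count of lower members was 0 under quantile normalization, median centring and variance moderation without a trend, and without any 1 replicate other than AP20187 replicate 4. Vldlr, Wars, Eif2s2 and Slc7a11 stood at 0.32 to 0.59 and did not pass.

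Of the secreted members, Fgf21 and Inhbe rose, while Stc2 fell. Fgf21, a hormone of fasting, had untreated ratios of 0.11, 0.12, 0.15 and 0.05 and AP20187 ratios of 4.8, 3.38, 3.05 and 3.03, a rise of 4.54 ± 0.27. Inhbe, the beta-E chain of activin and inhibin made by hepatocytes, went from 0.9, 0.33, 0.58 and 0.98 to 5.84, 5.17, 4.69 and 5.02, a rise of 2.91 ± 0.31 (adjusted p = 0.000321). In both genes every treated array stood above every untreated array.

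**Figure D2:**
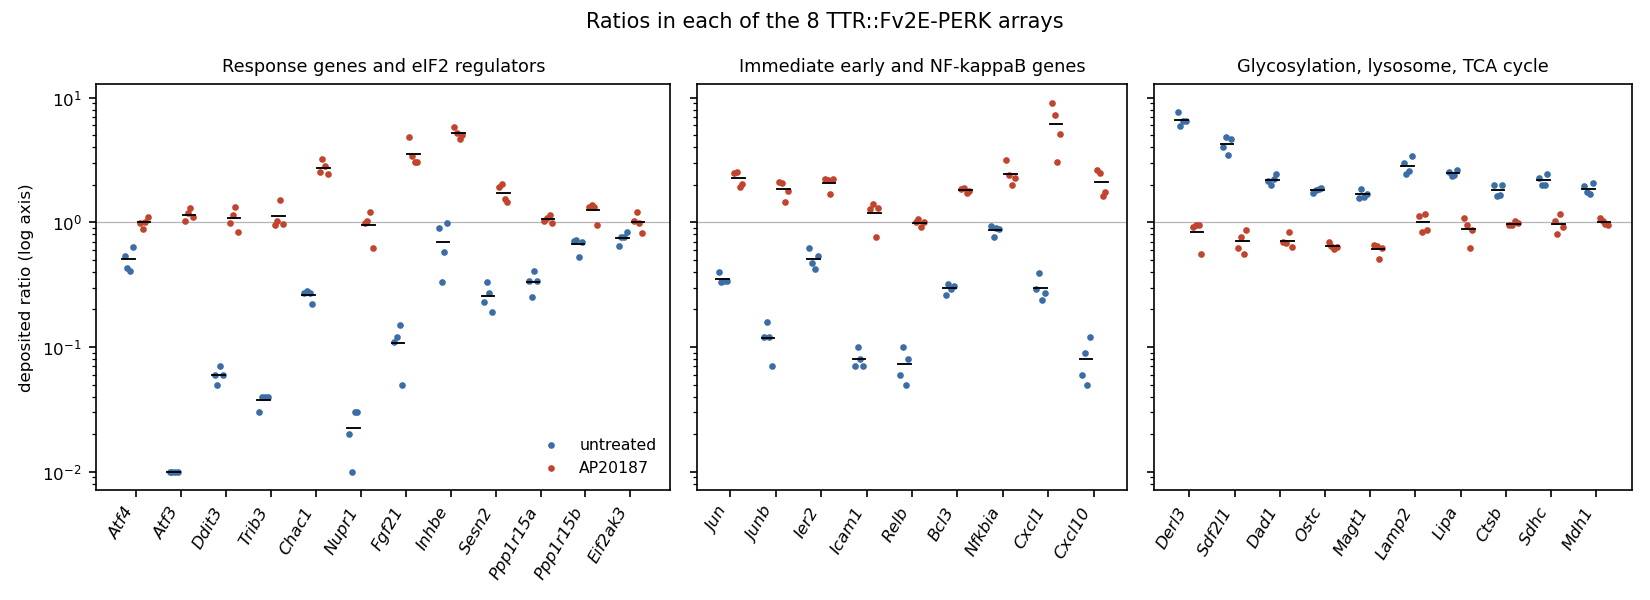
Points are the deposited ratios of single arrays on a log axis, blue for the 4 untreated and red for the 4 AP20187 arrays, with black bars at the group means. In the left and middle panels the red points lie above the blue for each gene but Eif2ak3, whose groups overlap, and in the right panel each gene lies lower with AP20187.

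The C/EBP-ATF response element, to which ATF4 binds with a C/EBP partner, was sought by its letters TGATGCAA on either strand of RefSeq promoter windows that run from 250 bases before to 50 bases after a start. Shown here are the bases before the start for the ISR effectors that rose and hold the element. The element is in capitals, and each sequence reads 5′ to 3′ along the gene (GRCm38.p6). In all 6 the element lies in the opposite direction to the gene, so the capitals read TTGCATCA, but over all genes that rose it lay along the gene in 16 and opposite in 12. It begins 139 bases before the start in Fgf21, 110 in Atf3 and in Nupr1, 193 in Chac1, 181 in Inhbe and 112 in Herpud1. Derl3, a factor of ER-associated degradation and one of the 15 largest falls, is shown for contrast with the ER stress response element in capitals.
Fgf21 (chr7:45615491-45615740, minus strand): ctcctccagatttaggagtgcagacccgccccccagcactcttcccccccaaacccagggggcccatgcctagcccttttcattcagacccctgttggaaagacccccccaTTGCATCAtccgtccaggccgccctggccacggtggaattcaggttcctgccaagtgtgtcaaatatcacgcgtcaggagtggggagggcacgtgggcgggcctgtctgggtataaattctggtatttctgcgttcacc
Atf3 (chr1:191183334-191183583, minus strand): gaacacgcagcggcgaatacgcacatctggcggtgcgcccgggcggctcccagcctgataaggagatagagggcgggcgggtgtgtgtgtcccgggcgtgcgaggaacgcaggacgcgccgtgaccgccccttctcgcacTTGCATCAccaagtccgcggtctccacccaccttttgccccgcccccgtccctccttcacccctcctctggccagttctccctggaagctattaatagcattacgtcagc
Nupr1 (chr7:126625471-126625720, minus strand): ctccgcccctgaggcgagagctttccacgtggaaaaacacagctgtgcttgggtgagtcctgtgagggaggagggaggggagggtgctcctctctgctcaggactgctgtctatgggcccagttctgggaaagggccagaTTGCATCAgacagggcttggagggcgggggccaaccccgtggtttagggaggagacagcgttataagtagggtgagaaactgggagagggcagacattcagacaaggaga
Chac1 (chr2:119350992-119351241, plus strand): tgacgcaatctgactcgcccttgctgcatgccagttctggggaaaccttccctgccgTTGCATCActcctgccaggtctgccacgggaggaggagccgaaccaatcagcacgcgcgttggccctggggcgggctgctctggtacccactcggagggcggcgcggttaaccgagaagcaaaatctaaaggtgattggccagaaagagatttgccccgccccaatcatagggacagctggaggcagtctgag
Inhbe (chr10:127351849-127352098, minus strand): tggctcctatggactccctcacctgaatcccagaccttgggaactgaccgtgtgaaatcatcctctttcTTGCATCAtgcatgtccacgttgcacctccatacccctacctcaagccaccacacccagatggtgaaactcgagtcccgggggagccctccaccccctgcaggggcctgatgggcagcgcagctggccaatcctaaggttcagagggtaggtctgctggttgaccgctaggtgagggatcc
Herpud1 (chr8:94386179-94386428, plus strand): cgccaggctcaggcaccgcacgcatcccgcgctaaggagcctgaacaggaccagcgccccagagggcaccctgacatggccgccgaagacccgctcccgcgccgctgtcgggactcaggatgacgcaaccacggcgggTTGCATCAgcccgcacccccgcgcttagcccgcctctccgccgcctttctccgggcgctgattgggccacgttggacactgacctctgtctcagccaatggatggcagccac
Derl3 (chr10:75893148-75893397, plus strand): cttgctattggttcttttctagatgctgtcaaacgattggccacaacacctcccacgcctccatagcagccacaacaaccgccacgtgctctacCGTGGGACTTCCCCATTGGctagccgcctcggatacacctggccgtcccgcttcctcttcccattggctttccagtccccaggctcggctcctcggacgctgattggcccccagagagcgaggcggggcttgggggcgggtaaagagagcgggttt

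Counted over all genes, the element was held by 84 of the 9882 genes with a window (0.85%), and by 0.895% of all 32851 windows. It was held by 28 of 1355 genes that rose (2.07%), 15 of 2190 that fell (0.685%) and 41 of 6337 that did not pass (0.647%). Among 125 genes that rose at least 4-fold it was held by 8 (6.4%). Of 19 ISR effectors with a window 8 held it (42.1%), but that list was assembled from genes known as ATF4 targets. Outside the list, Gadd45g rose by 3.34 ± 0.20, Angptl8, a secreted regulator of lipoprotein lipase, by 3.08 ± 0.27 and the amino acid carrier Slc1a4 by 1.42 ± 0.13 (2.56 and 2.81 at its other probe sets) with the element in their windows. Vldlr holds it and stood at 0.59 ± 0.21 (adjusted p = 0.0621). Slc7a11 holds it at 2 places and stood at 0.32 ± 0.59. The letters therefore occurred in genes that rose, that fell and that did neither.

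Other motifs were counted the same way, on both strands. The cAMP response element, TGACGTCA, was in 3% of all genes, 4.5% of those that rose and 2.33% of those that fell. The E-box CACGTG, which Myc among others can bind, was in 10.8%, 14% and 10.8%. The ER stress response element, CCAAT and CCACG with 9 bases of any kind between them, was in 18 genes in all (0.182%), of which 8 fell and 1 rose. By list, the E-box was in 6 of 30 ribosome biogenesis genes, 4 of 14 glucocorticoid targets and 4 of 17 immediate early genes with a window. It was also in 4 of 21 glycosylation and hexosamine genes and 2 of 19 ISR effectors with a window. The unfolded protein response element TGACGTGG was in 1.04%, 0.886% and 0.868%, the D-box TTATGTAA in 0.718%, 0.959% and 0.639%, and the TATA box TATAAA in 11.9%, 9.96% and 9.68%. Over all windows the shares were 1.79% for the cAMP element, 7.15% for the E-box and 0.119% for the ER stress element. The C/EBP-ATF element shared bases with an E-box in 1 window and with none of the other motifs counted, while the ER stress element shared bases with the unfolded protein response element in 2. A match is a description of letters and says nothing of binding.

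**Figure D3:**
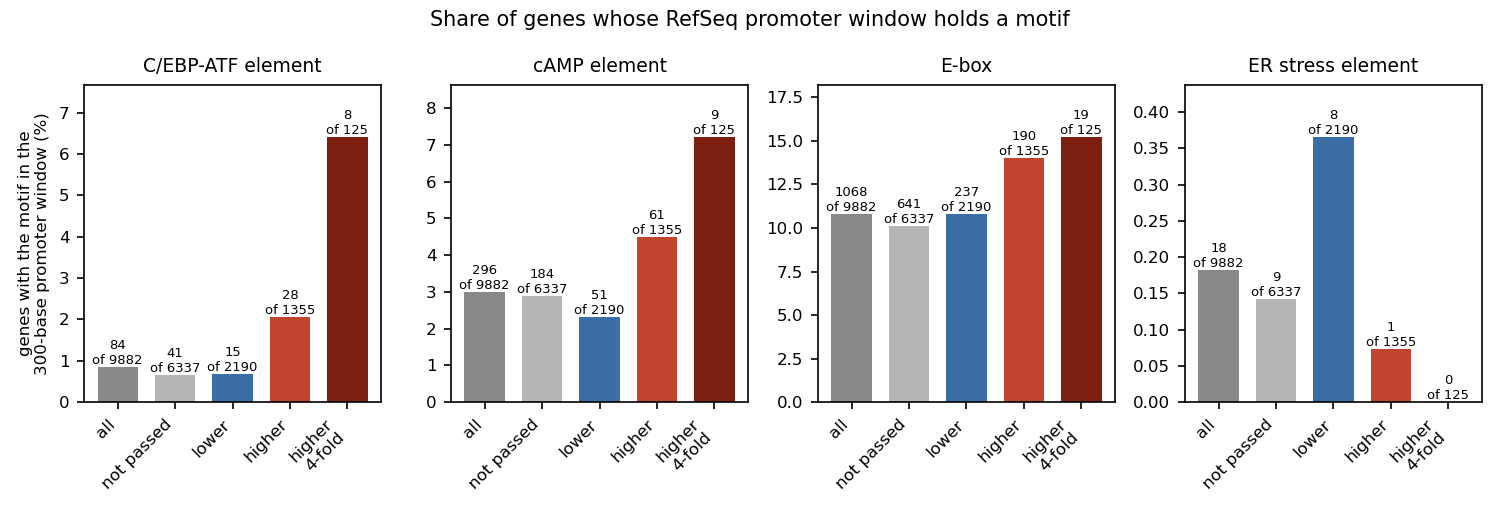
Bars give the percentage of genes whose promoter window holds each of 4 motifs, for all genes with a window, genes that did not pass, genes lower, genes higher and genes higher at least 4-fold, with counts above each bar and axes that start at 0. The C/EBP-ATF element rises from 0.85% of all genes to 6.4% of those higher at least 4-fold, and the ER stress element, in few genes, is most frequent among the lower genes.

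The genes that set eIF2α phosphorylation did not stand apart as a group, with 2 of 18 higher and 3 lower beside 13.3% and 21.4% of all genes, and a median of -0.02. Ppp1r15a (GADD34), the inducible phosphatase subunit, had untreated ratios of 0.34, 0.25, 0.41 and 0.34 and AP20187 ratios of 1.03, 1.09, 1.14 and 0.99, a rise of 1.55 ± 0.20. Ppp1r15b, its constitutive relative, went from 0.71, 0.72, 0.53 and 0.7 to 1.32, 1.39, 1.34 and 0.95 and rose by 0.86 ± 0.16 (adjusted p = 0.00436). Both subunits that aim the phosphatase at eIF2α were thus higher in every treated array. Ppp1ca, a catalytic subunit shared with many other phosphatases, moved the other way, from 1.63, 1.34, 1.46 and 1.67 to 0.82, 0.7, 0.85 and 0.8 (-0.90 ± 0.10). Eif2ak3, which encodes PERK, was at 0.65, 0.77, 0.76 and 0.83 and at 1.02, 1.2, 0.98 and 0.82, groups that overlap, and its difference of 0.39 ± 0.15 did not pass (adjusted p = 0.0747). It passed after median centring (0.0468), in the fit on all 16 arrays (0.0358) and without AP20187 replicate 4 (0.0425). Which part of the transcript its probe set reads relative to the transgene is not known here. The count of lower members was 1 after quantile normalization and without untreated replicate 3, AP20187 replicate 2 or AP20187 replicate 4. The heme-regulated kinase Eif2ak1 fell by 0.50 ± 0.14 (adjusted p = 0.0253; its other probe sets at -0.41 and 0.74) and the eIF2 subunit Eif2s3x by 0.46 ± 0.14 (adjusted p = 0.0387). Both calls were lost in several alternatives, with adjusted p up to 0.103 and 0.1.

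Immediate early genes, which respond to growth factors and stress without new protein synthesis, mostly rose. Of 21 members, among them the AP-1 subunits and their partners, 16 rose and none fell, with a median of 1.47. None was lower at an unadjusted p under 0.05 by limma either. Jun, an AP-1 subunit, had untreated ratios of 0.4, 0.33, 0.34 and 0.34 and AP20187 ratios of 2.5, 2.55, 1.93 and 2.02, a rise of 2.51 ± 0.13 (adjusted p = 5.74e-05). Junb went from 0.12, 0.16, 0.12 and 0.07 to 2.1, 2.08, 1.45 and 1.79 and rose by 3.52 ± 0.26. Ier2 went from 0.62, 0.47, 0.42 and 0.54 to 2.24, 2.17, 1.69 and 2.21 and rose by 1.92 ± 0.14. All treated arrays stood above all untreated arrays for the 3 genes, and AP20187 replicate 3 was the lowest treated array in each. Zfp36, a protein that speeds the decay of cytokine messengers, rose by 1.21 ± 0.08. The members not past the threshold, Egr2, Egr3, Fosl1, Nr4a2 and Nr4a3, stood at -0.25 to 0.34.

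Inhibitors of MAP kinase signalling rose as well, 10 of 16, with a median of 0.79. Dusp1, a phosphatase of the stress kinases, went from 0.93, 1.01, 0.96 and 0.89 to 4.24, 3.69, 2.89 and 3.57 and rose by 1.86 ± 0.14. Dusp6, a phosphatase of ERK, went from 1.01, 0.75, 0.87 and 0.99 to 2.78, 3.69, 2.62 and 3.14 and rose by 1.70 ± 0.15. In both, the lowest treated ratio was more than 2-fold the highest untreated ratio. Dusp16 rose by 1.90 ± 0.12 and Spry1, a feedback inhibitor of growth factor receptors, by 1.40 ± 0.11. Spry2 was the only member to fall, and the count of lower members was 0 under the same alternatives as for the ISR effectors. Of 13 Krüppel-like factors, zinc finger transcription factors, 7 rose (median 0.77). Klf6 went from 0.13, 0.1, 0.11 and 0.1 to 1.06, 1.48, 1.05 and 0.95 and rose by 2.87 ± 0.26. Klf10, Klf16 and Klf3 rose by 2.18, 1.66 and 1.18. Klf2 and Klf7 fell, and the count of lower members was 0 under quantile normalization and without untreated replicate 1, untreated replicate 3 or AP20187 replicate 1.

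Genes of NF-κB, a transcription factor of inflammation, mostly rose: 14 of 19 members were higher, none was lower, also at an unadjusted p under 0.05 by limma, and the median was 1.05. Relb, a subunit of the noncanonical pathway, had untreated ratios of 0.06, 0.1, 0.05 and 0.08 and AP20187 ratios of 1.0, 1.06, 0.91 and 1.0, a rise of 3.10 ± 0.27. Bcl3, a nuclear partner of NF-κB, went from 0.26, 0.32, 0.29 and 0.31 to 1.86, 1.88, 1.72 and 1.8 and rose by 2.44 ± 0.13 (adjusted p = 6.58e-05). Nfkbia, the inhibitor that NF-κB itself induces, went from 0.93, 0.77, 0.9 and 0.88 to 3.18, 2.41, 1.99 and 2.27 and rose by 1.43 ± 0.15. These 3, a subunit, a partner and a feedback inhibitor, were higher in every treated array. Icam1, an adhesion molecule and classical NF-κB target, went from 0.07, 0.1, 0.08 and 0.07 to 1.29, 1.4, 0.76 and 1.3 and rose by 3.22 ± 0.30. The chemokine Cxcl1 showed AP20187 ratios of 9.08, 7.25, 3.03 and 5.11 against 0.29, 0.39, 0.24 and 0.27 untreated. Cxcl2, its close relative, showed 2.96, 2.67, 1.04 and 1.44 against 0.04, 0.04, 0.03 and 0.03, a rise of 4.49 ± 0.39. The interferon-inducible chemokine Cxcl10 showed 2.65, 2.47, 1.63 and 1.74 against 0.06, 0.09, 0.05 and 0.12. For the 3 chemokines the treated arrays were far above the untreated ones, with replicate 3 the lowest of the treated arrays. Beside these genes, no neutrophil marker passed (9 measured), 6 of 12 macrophage markers fell, and the part of other cells in the chemokine values was not tested.

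Of 26 cytokine receptors and their regulators 7 were higher and 6 lower, the latter near the 21.4% of all genes, with a median of 0.02. Socs3, a feedback inhibitor of JAK kinases, went from 0.58, 0.52, 0.67 and 0.59 to 2.82, 3.21, 2.73 and 3.43 and rose by 2.27 ± 0.11 (adjusted p = 5.74e-05). Socs2, which restrains growth hormone signalling, rose by 2.07 ± 0.21. The receptor Il1r1 went from 0.57, 0.78, 0.78 and 0.62 to 3.08, 2.31, 2.87 and 2.58 and rose by 1.91 ± 0.14. Its partner chain Il1rap went from 1.66, 1.7, 1.67 and 1.86 to 1.11, 0.99, 0.89 and 1.01, a fall of 0.76 ± 0.09, but 2 other Il1rap probe sets stood at 0.84 and 1.23 with another call. The direction of Il1rap therefore depends on the probe set.

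Of 28 genes of TGF-β, BMP and activin signalling, 17 rose, 1 fell and the median was 0.55. On the ligand side stood Inhbe, given above, and follistatin, Fst, which binds activins and went from 0.66, 0.57, 0.46 and 0.43 to 1.96, 1.53, 1.25 and 1.61, a rise of 1.50 ± 0.18. The receptor Tgfbr1 went from 0.72, 0.67, 0.75 and 0.73 to 1.38, 1.41, 1.13 and 1.24 and rose by 0.80 ± 0.10. Smad7, the inhibitory SMAD, went from 0.89, 0.71, 0.76 and 0.56 to 2.51, 2.71, 2.79 and 2.92 and rose by 1.85 ± 0.13 (adjusted p = 9.97e-05). Ligand, trap, receptor and inhibitor were each higher in every treated array. Tgif1, a corepressor of SMADs, went from 0.29, 0.31, 0.24 and 0.21 to 1.66, 1.58, 1.45 and 1.34 and rose by 2.32 ± 0.19. Id3, a BMP target that blocks helix-loop-helix factors, went from 0.6, 0.45, 0.49 and 0.49 to 2.03, 2.6, 2.17 and 2.16 and rose by 2.04 ± 0.12. Id1 rose by 1.48 ± 0.10. The ligand gene Tgfb1 was the member that fell, by 0.54 ± 0.10. The collagen gene Col3a1, a fibroblast marker, went from 4.64, 3.46, 3.9 and 4.66 to 0.91, 1.05, 0.98 and 1.0 (-2.02 ± 0.16).

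Genes induced by glucocorticoids had the highest median of the 44 lists, 1.60, with 12 of 16 higher and 2 lower (Pck1 and Tsc22d3). Fkbp5, a chaperone of the glucocorticoid receptor, went from 0.14, 0.26, 0.2 and 0.21 to 1.59, 1.44, 1.45 and 1.44 and rose by 2.62 ± 0.22. Per1, a clock gene with glucocorticoid elements, went from 0.38, 0.29, 0.41 and 0.36 to 1.44, 1.37, 1.42 and 1.42 and rose by 1.84 ± 0.15. Both were steady across the treated arrays. The receptor itself, Nr3c1, went from 0.96, 0.85, 0.87 and 0.73 to 1.69, 1.66, 1.33 and 1.69 and rose by 0.86 ± 0.11. The count of lower members was 1 under quantile normalization, and 0 without untreated replicate 1, AP20187 replicate 1 or AP20187 replicate 2 and with the probe set of smallest spread. Ddit4, Dusp1, Errfi1, Klf9, Lcn2, Angptl4, Tat and Pck1 belong to other lists here too. Of 17 hypoxia targets 4 rose, Pfkfb3, Bnip3, Hif1a and Vegfa, by 1.87, 0.87, 0.83 and 0.76. P4ha1 and Ldha fell by 0.53 and 0.35, a count of 2 that was 0 without untreated replicate 3, untreated replicate 4, AP20187 replicate 1, 2 or 4, and the list's median was 0.01. Median centring raised the count of higher members to 7. Over all genes 13.3% were higher and 21.4% lower.

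Genes of the insulin-like growth factor (IGF) axis mostly fell, 8 of 12, with a median of -0.62 and only Igfbp1 higher. Igfals, which holds IGF in long-lived complexes in plasma, had untreated ratios of 2.26, 1.87, 1.95 and 2.21 and AP20187 ratios of 1.01, 1.0, 1.2 and 0.83, a fall of 1.01 ± 0.12. Igf2r, the receptor that clears IGF2, went from 1.88, 1.95, 1.72 and 1.94 to 0.82, 0.79, 0.79 and 0.87 and fell by 1.15 ± 0.07 (adjusted p = 8.83e-05). The growth hormone receptor Ghr went from 1.66, 1.45, 1.63 and 1.78 to 1.07, 0.91, 1.08 and 0.93 and fell by 0.68 ± 0.10. Receptor, carrier and clearance genes were thus lower in all treated arrays, beside higher Socs2 and Igfbp1. Igfbp3 and Igfbp5, which other liver cells also make, fell by 1.32 ± 0.21 and 1.33 ± 0.19. The other Igfbp5 probe set stood at -0.40 and did not pass. Beside them 7 of 12 stellate cell markers fell, and the part of these cells was not tested. Among 20 hormone and growth factor receptors 7 fell and 3 rose (Egfr, Nr3c1 and Klb). The lipoprotein receptor Lrp1 went from 3.91, 3.0, 3.48 and 3.9 to 0.98, 0.93, 1.23 and 0.99 and fell by 1.74 ± 0.15, and the glucagon receptor Gcgr fell by 0.73 ± 0.11. Of 14 secreted hormones 5 rose and 7 fell. Lcn2 rose by 1.51 ± 0.20, and the chemotactic hepatokine Lect2 fell by 2.06 ± 0.20, from 3.45, 3.17, 3.7 and 4.48 to 0.94, 0.6, 1.1 and 0.8.

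The BCL2 family sets the threshold of mitochondrial cell death. Of 15 members 4 were higher and 4 lower, beside 13.3% and 21.4% of all genes. Bbc3 (PUMA), a BH3-only killer, went from 0.23, 0.4, 0.22 and 0.3 to 1.57, 1.63, 1.5 and 1.5 and rose by 2.28 ± 0.21 (adjusted p = 0.000171). Bcl2l11 (BIM), another killer, went from 0.84, 0.64, 0.55 and 0.57 to 1.54, 1.73, 1.04 and 1.88 and rose by 1.18 ± 0.21, and its 4 other probe sets rose by 1.76 to 2.01. Bid rose by 1.11 ± 0.16 and Bnip3 by 0.87 ± 0.09. The members that fell are also on the killer side: Bik, Bad, Bok and Bmf fell by 0.86, 0.70, 0.55 and 1.60. The other Bad probe set stood at -0.77 and the other Bik probe sets at -0.50 and -0.46, and none of these passed. The guardians Bcl2, Bcl2l1, Bcl2l2 and Mcl1 stood at -0.26 to 0.03 and did not pass. Of 18 death receptors and caspases 2 rose, Tnfrsf12a and Tnfrsf1b, and 4 fell, shares near the 13.3% and 21.4% of all genes. Tnfrsf1b, a receptor of TNF, went from 1.0, 0.73, 0.97 and 0.86 to 2.76, 3.21, 3.05 and 3.99 and rose by 1.81 ± 0.15. The other TNF receptor, Tnfrsf1a, went from 1.2, 1.42, 1.35 and 1.42 to 0.94, 1.03, 0.84 and 0.97 and fell by 0.49 ± 0.09, and its adaptor Tradd fell by 0.79 ± 0.10, with another probe set at -0.37 that did not pass. The 2 TNF receptors therefore moved in opposite directions in all arrays.

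**Figure D4:**
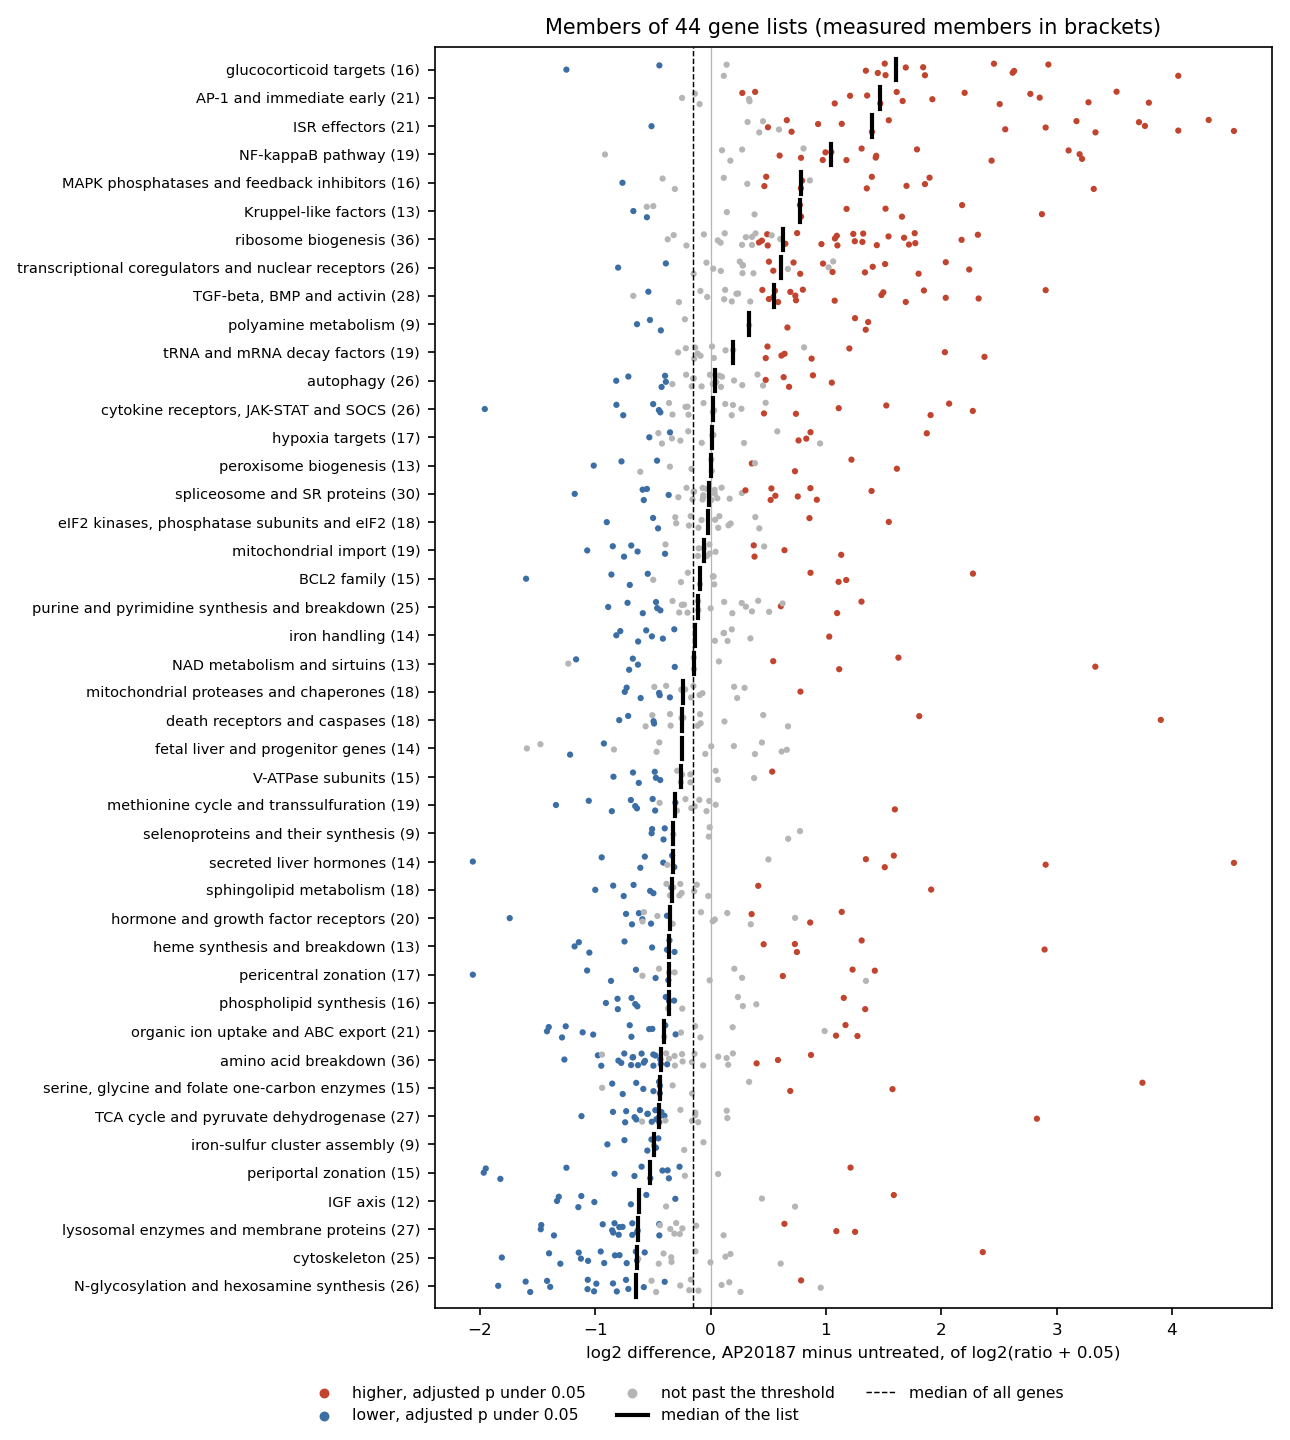
Each point is a measured member of 1 of 44 gene lists, placed by its log2 difference between AP20187 and untreated arrays, red where higher, blue where lower and grey where it did not pass. Black bars are list medians, ordered from N-glycosylation and hexosamine synthesis at -0.65 to glucocorticoid targets at 1.60. The dashed line is the median of all genes at -0.15.

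Genes for N-glycosylation, the attachment of sugar chains to new secretory proteins in the ER, were listed together with genes for hexosamine synthesis. This list had a median among the lowest of the 44 lists, the lowest in 10 of 17 settings. Of 26 members 15 fell, 1 rose (Gnpnat1) and 10 did not pass, with a median of -0.65. Ostc, a subunit of oligosaccharyltransferase, had untreated ratios of 1.71, 1.83, 1.86 and 1.88 and AP20187 ratios of 0.7, 0.65, 0.61 and 0.64, a fall of 1.42 ± 0.08 (adjusted p = 6.20e-05). Dad1, another subunit, went from 2.16, 2.0, 2.21 and 2.43 to 0.69, 0.68, 0.84 and 0.64 and fell by 1.56 ± 0.10. Magt1 went from 1.56, 1.86, 1.61 and 1.68 to 0.66, 0.65, 0.51 and 0.62 and fell by 1.39 ± 0.11. Ddost went from 1.55, 1.57, 1.48 and 1.56 to 0.64, 0.7, 0.78 and 0.72 and fell by 1.07 ± 0.08. All 4 encode subunits of oligosaccharyltransferase, though not all of the same form of it, and none overlapped between the groups. After quantile normalization 14 members fell. Derl3, whose promoter window is shown above, went from 7.61, 5.91, 6.53 and 6.56 to 0.91, 0.95, 0.95 and 0.56 and fell by 2.93 ± 0.25. Sdf2l1, a cofactor of the ER chaperone BiP, went from 3.99, 4.83, 3.44 and 4.7 to 0.62, 0.76, 0.56 and 0.87. Of 21 glycosylation and hexosamine genes with a promoter window, 1 held the ER stress response element and none the C/EBP-ATF element.

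Lysosomal genes fell as broadly, 16 of 27, with 3 higher (Tfeb, Npc1 and Ctsl) and a median of -0.63. Lamp2, a major protein of the lysosomal membrane, went from 2.98, 2.46, 2.59 and 3.4 to 1.13, 0.83, 1.17 and 0.87 and fell by 1.47 ± 0.16. Lipa, the acid lipase that frees cholesterol, went from 2.55, 2.37, 2.39 and 2.64 to 1.08, 0.96, 0.62 and 0.87 and fell by 1.47 ± 0.16. The protease Ctsb went from 2.0, 1.62, 1.65 and 1.99 to 0.95, 0.96, 1.02 and 0.98 and fell by 0.85 ± 0.09. The ceramidase Asah1 fell by 0.84 ± 0.09. The counts were also 16 and 3 after quantile normalization and after median centring. Macrophages are rich in lysosomes, and 6 of 12 macrophage markers fell by 0.37 to 0.73. Their part in the lysosomal values was not tested. Of 15 subunits of the V-ATPase, the proton pump of lysosomes, 6 fell and Atp6v1d rose (median -0.26). Atp6v1a, its catalytic subunit, went from 1.54, 1.95, 2.01 and 1.5 to 1.02, 0.94, 0.85 and 0.98 and fell by 0.84 ± 0.12.

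Of 26 autophagy genes 5 were higher and 5 lower, shares near the 13.3% and 21.4% of all genes. Uvrag, which promotes membrane maturation, went from 0.56, 0.58, 0.65 and 0.66 to 1.39, 1.35, 1.18 and 1.37 and rose by 1.05 ± 0.11. Atg14 went from 0.64, 0.63, 0.87 and 0.88 to 1.37, 1.41, 1.35 and 1.57 and rose by 0.89 ± 0.13, and Atg16l1 rose by 0.63 ± 0.11. The conjugated protein Gabarap went from 1.44, 1.22, 1.44 and 1.43 to 0.76, 0.73, 0.86 and 0.7 and fell by 0.82 ± 0.10. Median centring raised the count of higher members to 8, and quantile normalization lowered that of lower members to 3.

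Of 27 genes of the TCA cycle and pyruvate dehydrogenase 17 fell and 1 (Pdk4, which shuts pyruvate dehydrogenase) rose, with a median of -0.45. Sdhc, a subunit of succinate dehydrogenase, went from 2.25, 2.01, 1.98 and 2.45 to 1.03, 0.8, 1.16 and 0.92 and fell by 1.12 ± 0.13. Sdha went from 1.71, 1.68, 1.63 and 1.81 to 1.03, 0.95, 1.15 and 0.89 and fell by 0.74 ± 0.09. Mdh1, the cytosolic malate dehydrogenase, went from 1.95, 1.76, 1.68 and 2.07 to 1.09, 1.03, 0.97 and 0.96 and fell by 0.85 ± 0.09, though 1 of its 3 other probe sets had another call. In these 3 genes every treated array was below every untreated array. Of 36 genes of amino acid breakdown 19 fell and 3 rose (Prodh, Got1 and Asl), and quantile normalization left 13 lower. Amdhd1, of histidine breakdown, went from 2.5, 2.41, 2.28 and 2.5 to 1.02, 0.88, 0.98 and 1.03 and fell by 1.27 ± 0.09. The glutamate dehydrogenase Glud1 fell by 0.77 ± 0.10, Haao of tryptophan breakdown by 0.95 ± 0.11 and Hgd of tyrosine breakdown by 0.75 ± 0.09.

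Of 15 enzymes of serine, glycine and folate metabolism 3 rose and 8 fell. Psat1, which makes serine, went from 0.03, 0.03, 0.06 and 0.04 to 1.22, 1.4, 1.0 and 1.01 and rose by 3.75 ± 0.28. Mthfd2, the mitochondrial folate enzyme, went from 0.29, 0.46, 0.44 and 0.43 to 1.46, 1.28, 1.17 and 1.27 and rose by 1.58 ± 0.18, and its other probe set rose by 2.65. Psph, the last step of serine synthesis, was the third to rise, by 0.69 ± 0.12. Against them, 8 of 15 members fell, among them Gcsh of glycine cleavage by 0.85 ± 0.08 and the cytosolic folate enzyme Mthfd1 by 0.76 ± 0.10. Phgdh, the first enzyme of serine synthesis, stood at -0.16 ± 0.18 and did not pass. Shmt2, which like Mthfd2 is mitochondrial, fell by 0.44. In the methionine cycle and transsulfuration, 9 of 19 fell (median -0.31) and only Mtrr, which reactivates methionine synthase, rose, from 0.31, 0.27, 0.29 and 0.32 to 1.01, 1.1, 0.99 and 0.91 (1.60 ± 0.19). Gclc, the rate-limiting enzyme of glutathione synthesis, went from 2.59, 2.68, 2.46 and 2.29 to 0.99, 0.94, 0.9 and 1.0 and fell by 1.34 ± 0.09, beside the rise of the glutathione-degrading Chac1. Sulfite oxidase, Suox, fell by 1.06 ± 0.09.

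Of the iron and heme genes measured, more fell than rose, though the split of the heme genes turned under quantile normalization. Of 13 heme genes 8 fell and 5 rose (Hmox1, Alas1, Hmox2, Bach1 and Cpox), and 3 were left higher without untreated replicate 1, untreated replicate 4, AP20187 replicate 1 or AP20187 replicate 2. Alad, an early step of synthesis, went from 2.5, 2.05, 1.86 and 2.55 to 1.02, 0.84, 1.09 and 0.88 and fell by 1.18 ± 0.14, and Urod fell by 1.05 ± 0.13. Hmox1, which opens heme, went from 0.09, 0.08, 0.08 and 0.11 to 1.02, 1.27, 0.98 and 0.75 and rose by 2.90 ± 0.28, and Blvra, which reduces the biliverdin so formed, fell by 1.14 ± 0.11. Quantile normalization left 4 heme genes lower and 5 higher. Of 9 genes of iron-sulfur cluster assembly 6 fell and none rose (median -0.49), with 8 lower and none higher at an unadjusted p under 0.05 by limma. Nfs1, the cysteine desulfurase, went from 1.8, 1.78, 1.83 and 1.85 to 1.02, 0.9, 1.03 and 0.87 and fell by 0.90 ± 0.08, and the scaffold Iscu fell by 0.75 ± 0.12. In iron handling 7 of 14 fell, among them the exporter ferroportin, Slc40a1, by 0.78 ± 0.09, and the importer Slc39a14 alone rose, from 0.56, 0.46, 0.53 and 0.59 to 1.18, 1.16, 1.08 and 1.14 (1.03 ± 0.13). Of 19 mitochondrial import genes 4 rose and 6 fell, beside 13.3% and 21.4% of all genes. The count of higher genes was 2 without any 1 AP20187 replicate and without untreated replicate 2 or 4. Timm10 stood at 1.13 ± 0.18 and Tomm7 at -0.85 ± 0.12. Of 18 mitochondrial proteases and chaperones 6 fell, among them the fusion protein Opa1 by 0.73 ± 0.09, and the cochaperone Dnaja3 rose by 0.78 ± 0.13, though 1 of its other probe sets stood at -1.12 and did not pass. Of 9 genes listed for selenium and selenoproteins 4 fell by 0.40 to 0.51, a count of 2 after quantile normalization. They were the selenoproteins Gpx1, Gpx4 and Txnrd2 and the selenium-binding Selenbp1, which is none.

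Polyamines are growth-related cations made from ornithine. Odc1, the rate-limiting enzyme, went from 0.42, 0.3, 0.27 and 0.43 to 1.02, 1.08, 0.76 and 1.09 and rose by 1.37 ± 0.23. Azin1, which frees it from its inhibitor, rose by 0.67 ± 0.09, and the spermidine synthase Srm by 1.25 ± 0.19. Oaz1, the antizyme that destroys Odc1, went from 1.3, 1.42, 1.47 and 1.5 to 1.01, 0.89, 0.8 and 0.89 and fell by 0.64 ± 0.09. In all, 4 of 9 members were higher and 3 lower. Among 13 genes of NAD metabolism 4 rose and 5 fell, 3 of them without untreated replicate 1. Nnmt, which methylates nicotinamide, went from 0.23, 0.24, 0.27 and 0.36 to 3.43, 3.08, 2.68 and 3.68 and rose by 3.34 ± 0.16. The salvage enzyme Nampt rose by 1.12 ± 0.10 and the deacetylase Sirt1 by 1.63 ± 0.12, from 0.47, 0.53, 0.54 and 0.5 to 1.88, 1.8, 1.4 and 1.68. Qprt, of synthesis from tryptophan, fell by 1.17 ± 0.13. The groups did not overlap for any of these 4 genes. Of 25 purine and pyrimidine genes 6 fell (2 after quantile normalization, 3 without untreated replicate 4) and 3 rose, with Ppat, which commits to purine synthesis, at 1.31 ± 0.10 and Ctps, which makes CTP, at 1.10 ± 0.17. Both shares lie near the 13.3% and 21.4% of all genes. The count of higher members ranged from 2, without AP20187 replicate 4, to 6, after median centring.

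More genes of membrane lipid synthesis fell than rose, as was also so over all genes (21.4% lower and 13.3% higher). Of 16 phospholipid synthesis genes 9 fell and 2 rose, and quantile normalization left 5 lower. Chka, the choline kinase, went from 0.44, 0.4, 0.41 and 0.45 to 1.17, 1.31, 1.26 and 0.91 and rose by 1.34 ± 0.17, whereas Pcyt2 and Pemt of the ethanolamine branch fell by 0.69 ± 0.09 and 0.65 ± 0.09. Of 18 sphingolipid genes 7 fell, 4 of them after quantile normalization. Sptlc1, of the first step, fell by 0.75 ± 0.10, and of its other probe sets 1 fell by 1.21 and 2, at -0.10 and -0.33, did not pass. The lyase Sgpl1 went from 2.0, 1.48, 1.92 and 2.02 to 1.1, 0.9, 0.82 and 0.79 and also fell. The sphingomyelin synthase Sgms1 rose by 1.91 ± 0.27. Of 13 peroxisome biogenesis genes 4 rose and 3 fell, with Pex26 at 1.22 ± 0.10. Pex16 fell by 1.01 ± 0.13, but its other probe set stood at 0.04 and did not pass.

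Genes for ribosome biogenesis, the making of ribosomes in the nucleolus, rose broadly. Of 36 genes 22 rose and none fell, with a median of 0.63. At an unadjusted p under 0.05 by limma 28 were higher and 1 lower. Gar1, a core protein of pseudouridylation particles, had untreated ratios of 0.27, 0.25, 0.26 and 0.28 and AP20187 ratios of 0.97, 1.03, 1.18 and 0.93, a rise of 1.77 ± 0.20. Gnl3 (nucleostemin) went from 0.31, 0.22, 0.29 and 0.28 to 0.99, 1.13, 1.17 and 0.95 and rose by 1.78 ± 0.21. Rrs1 went from 0.36, 0.21, 0.33 and 0.35 to 1.1, 1.33, 0.89 and 1.23 and rose by 1.72 ± 0.24. Wdr43 went from 0.35, 0.34, 0.34 and 0.35 to 0.93, 1.07, 1.29 and 0.85 and rose by 1.44 ± 0.20. All 4 stood near 0.3 in untreated and near 1 in treated arrays. The counts after quantile normalization, median centring and use of the probe set with the smallest spread were 25, 27 and 25 higher.

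Of 19 genes of messenger decay 8 rose and none fell, and the counts were the same at an unadjusted p under 0.05 by limma. Zfp36l2 went from 0.61, 0.71, 0.65 and 0.7 to 2.96, 3.06, 2.73 and 2.78 and rose by 2.03 ± 0.08 (adjusted p = 4.56e-05). Its other probe sets stood at 1.14, which passed, and at 0.78, which did not. The antiproliferative deadenylase cofactor Btg2 went from 0.3, 0.26, 0.36 and 0.24 to 1.59, 1.92, 1.48 and 1.84 and rose by 2.38 ± 0.18, and its relative Tob2 rose by 1.20 ± 0.08. Of 30 spliceosome and SR protein genes 8 rose and 5 fell, beside 13.3% and 21.4% of all genes. The sign of their median of -0.01 turned with scaling. The kinases of SR proteins Clk4 and Clk1 rose by 1.40 ± 0.12 and 0.76 ± 0.08. Of 26 coregulators and nuclear receptors 12 rose and 2 fell (Nr0b2 and Nr2f6), with a median of 0.61. Nr1h4, the bile acid receptor FXR, went from 0.59, 0.54, 0.59 and 0.64 to 2.31, 2.08, 2.15 and 2.19 and rose by 1.80 ± 0.08 (adjusted p = 4.56e-05). Nr1i2, the xenobiotic receptor PXR, went from 0.72, 0.63, 0.63 and 0.47 to 1.61, 1.89, 1.98 and 1.83 and rose by 1.51 ± 0.13. Rora, which drives clock and lipid genes, went from 0.32, 0.27, 0.33 and 0.25 to 1.32, 1.33, 1.45 and 1.31 and rose by 2.04 ± 0.17. The treated arrays of these 3 receptors lay close together and well above the untreated ones. Nr0b2 (SHP), which FXR induces, fell by 0.80 ± 0.21.

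Genes for uptake and export of bile acids and drugs fell in 12 of 21 cases, with 3 higher (Slc22a5, Abcb1a and Abcb4) and 8 lower after quantile normalization. Slc10a1 (NTCP), the bile acid importer, went from 2.7, 2.63, 2.26 and 2.96 to 1.07, 0.8, 1.06 and 0.94 and fell by 1.40 ± 0.13. Abcb11, the bile salt export pump, went from 1.78, 1.72, 1.76 and 1.66 to 0.85, 0.78, 0.91 and 0.78 and fell by 1.02 ± 0.08 (adjusted p = 0.000102). The messengers of importer and exporter were thus lower together. Abcc3 fell by 1.42 ± 0.16 and Slco1a1 by 1.26 ± 0.12. The liver lobule is zoned, and genes of the periportal zone fell in 12 of 15 cases with Hsd17b13 alone higher (median -0.52, 8 lower after quantile normalization). Aldh1b1 went from 3.87, 3.78, 3.85 and 3.52 to 0.81, 0.9, 0.9 and 1.1 and fell by 1.97 ± 0.13. Cdh1 (E-cadherin) went from 3.53, 3.62, 3.54 and 4.31 to 0.67, 0.99, 1.22 and 0.92 and fell by 1.95 ± 0.19. Apof went from 3.67, 3.5, 3.48 and 3.81 to 1.06, 0.89, 0.94 and 1.06 and fell by 1.82 ± 0.12. Of 17 genes of the pericentral zone 6 fell and 3 rose, beside 21.4% and 13.3% of all genes. The aryl hydrocarbon receptor Ahr stood at 1.23 ± 0.13 and Rgn at -1.07 ± 0.12. The difference between the zones was not tested. Of 14 fetal liver genes Mest and Peg3 fell and none rose, while 3 were lower and 2 higher at an unadjusted p under 0.05 by limma.

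Cytoskeletal genes fell, 14 of 25, with a median of -0.64 and only Tuba8, a minor tubulin, higher, from 0.78, 0.31, 0.57 and 0.47 to 2.98, 2.59, 2.9 and 2.79 (2.36 ± 0.23). Cfl1 (cofilin), which severs actin filaments, went from 2.43, 1.72, 2.07 and 2.28 to 0.79, 0.66, 0.92 and 0.72 and fell by 1.40 ± 0.14. The keratin Krt8 went from 1.44, 1.41, 1.12 and 1.54 to 0.55, 0.6, 0.63 and 0.59 and fell by 1.14 ± 0.12. Tmsb10, which binds free actin, went from 2.55, 1.94, 2.29 and 2.68 to 0.75, 0.98, 1.02 and 0.96. Tmsb10 is also abundant in non-hepatocytes, and 7 of 12 stellate and 6 of 12 macrophage markers fell beside it. The part of these cells in its values was not tested. For Tmsb10, 2 of its 4 other probe sets had another call.

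A further test asked where the AP20187 difference departed from the high fat diet difference in the other experiment, taken as the mean over wildtype and Alb::GC. The AP20187 difference was the more positive in 1504 genes (12.1%) and the more negative in 2442 (19.7%). The end controls of the diet arrays moved with diet, at -0.16 to 0.21 on low fat and -0.71 to -0.33 on high fat diet for beta-actin, and their part in this contrast was not tested. Myc departed most among the largest rises, with a diet difference of -1.76 ± 0.24 and a gap of 6.06 ± 0.33 (adjusted p = 1.25e-06). Fgf21 stood at -1.40 ± 0.33 with diet, a gap of 5.94 ± 0.46. Asns stood at -0.63 ± 0.19 with diet, a gap of 2.32 ± 0.26. These genes rose with AP20187 and had negative values with high fat diet. Of the 21 ISR effectors, 14 were more positive with AP20187 and 2 more negative. Of 27 lysosomal genes 18 were more negative with AP20187, and Lipa stood at 2.01 ± 0.20 with diet against -1.47 with AP20187. Of 27 TCA cycle genes 22, of 36 amino acid breakdown genes 22 and of 26 glycosylation and hexosamine genes 14 were more negative.

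For some genes with large AP20187 differences, the gap to the diet difference did not pass, or the diet difference was the larger. Usp2 stood at 5.26 ± 0.52 with diet (gap -1.24 ± 0.73, adjusted p = 0.224) and Wee1 at 5.14 ± 0.36 (gap -1.29 ± 0.51, adjusted p = 0.0739). Cxcl1 stood at 3.15 ± 0.27 with diet and its gap of 0.91 ± 0.38 did not pass (adjusted p = 0.0881). The nuclear receptor Nr1d2 of the clock stood at 1.56 ± 0.15 against 1.41, and Npas2 at -2.29 ± 0.39 against -2.88. Il1r1 and Nnmt rose less with AP20187 than their diet differences of 3.03 ± 0.12 and 4.19 ± 0.17 (adjusted p = 0.000392 and 0.0152). Of 230 genes named, 187 had unequal differences in the 2 experiments, a count that follows in part from naming genes by their AP20187 differences. A gap that did not pass does not show that the differences were equal.

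**Figure D5:**
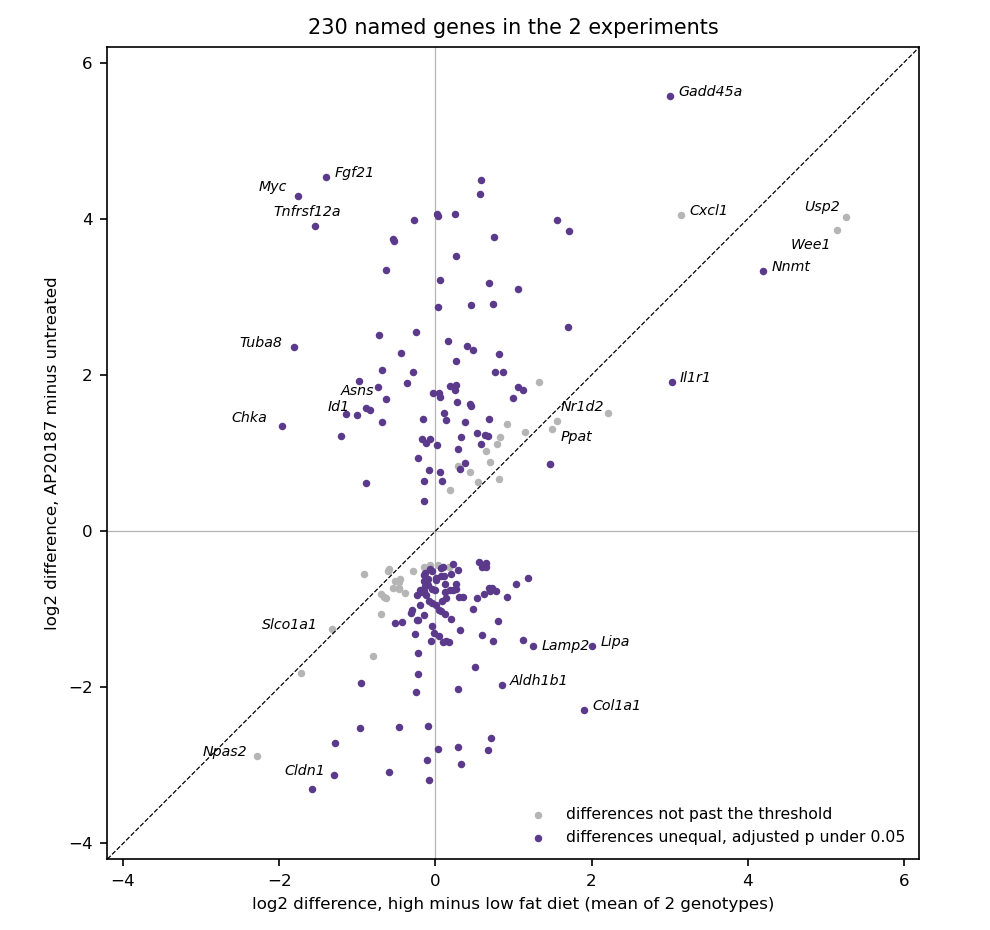
Each point is 1 of the 230 named genes, with its log2 difference between high and low fat diet (mean of 2 genotypes) on the horizontal axis and between AP20187 and untreated on the vertical axis. Purple points have unequal differences (adjusted p under 0.05), grey points do not pass, and the dashed line marks equality, near which lie Usp2, Wee1 and Npas2, while Myc and Fgf21 lie far above it.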

How the data were processed

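RNA of whole liver was hybridised to Affymetrix mouse arrays after biotin labelling, per the labels' protocols. The deposited values are 1 ratio per probe set on a linear scale, rounded to 2 decimals, and the authors' normalization and reference are not stated in any source used here. Whether the experiments were scaled together is unknown, so levels were not compared between them. Here 64 control probe sets were left out, each ratio was turned into log2(ratio + 0.05), and AP20187 and untreated arrays were compared with limma (lmFit, eBayes with trend) on 8 arrays, with p-values adjusted over 22626 probe sets. Of these, 20380 had 1 gene symbol, 691 several and 1555 none, and 20351 matched RefSeq by gene ID. For 1619 of 12393 genes another probe set had another call. The diet contrast was fitted on all 16 arrays with 6 group means. End ratios of control genes were compared with an exact permutation test. Sequences are from RefSeq (GRCm38.p6).

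The genes named are the 15 largest rises and the 15 largest falls that passed without overlap between groups, the 4 members with the smallest p that passed in each list (2 where none passed), up to 3 more in the ISR effector, eIF2, BCL2 and TGF-β lists, and Atf4, Ddit3, Trib3, Chac1, Ppp1r15a, Eif2ak3, Asns, Fgf21, Inhbe and Sesn2. Other genes are named where 5 or fewer members of a list moved one way or where they hold a motif, and were chosen after their values were seen. The members and lists were chosen with earlier results of these data known. On data simulated from the spread of these arrays, 33% of 2-fold and 67% of 4-fold changes were recovered, and 5.66% of calls were false. The simulation changed far fewer probe sets than passed in the arrays themselves, which makes the adjusted threshold stricter. Its recovery shares therefore do not give the recovery in this comparison. Alternatives were other offsets, quantile normalization, median centring, a filter on low values, moderation without a trend, all 16 arrays, another choice of probe set and each replicate left out. Depth does not apply to arrays, and the number of arrays limits the precision. R 4.3.3, limma 3.58.1, Python 3.11.15, numpy 2.4.6, pandas 2.3.3 and matplotlib 3.10.9 were used, with the package data.table at version 1.17.8.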

Additional observations from a re-analysis of the deposited data

Results flagged for a closer look

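In the groups of 4 arrays behind the named genes, 27 of 460 (5.87%) held an array whose gap to its nearest neighbour took up most of the group's range by Dixon's criterion, where chance gives about 1 in 20 (5%). The values below are deposited ratios, and no cause was tested.

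Among the untreated arrays, replicate 4 stood apart for Cdh1 (4.31 against 3.53 to 3.62), Chac1 (0.22 against 0.27 to 0.28), Opa1 (1.88 against 1.53 to 1.58) and Pex16 (2.22 against 1.73 to 1.8). Replicate 3 stood apart for Cp (1.47 against 1.55 to 1.56), Lyz2 (1.33 against 1.25 to 1.26) and Ppp1r15b (0.53 against 0.7 to 0.72). Replicate 2 did so for Gabarap (1.22 against 1.43 to 1.44) and Gadd45a (0.03 against 0.02), and replicate 1 for Jun (0.4 against 0.33 to 0.34) and Trib3 (0.03 against 0.04). The Gadd45a and Trib3 gaps equal the last decimal given.

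Among the AP20187 arrays, replicate 3 stood apart for Azin1 (1.08 against 1.19 to 1.21), Ier2 (1.69 against 2.17 to 2.24), Nr3c1 (1.33 against 1.66 to 1.69), Rora (1.45 against 1.31 to 1.33), Slc40a1 (1.09 against 0.9 to 0.91), Trib3 (1.51 against 0.96 to 1.03) and Txnrd2 (1.06 against 0.85 to 0.87). Replicate 1 stood apart for Clk1 (1.47 against 1.35 to 1.36), Fkbp5 (1.59 against 1.44 to 1.45), Otc (1.3 against 0.98 to 1.01) and Rgn (1.25 against 0.86 to 0.91). Replicate 2 had the widest gaps, for Npas2 (1.18 against 0.28 to 0.43) and Ptk6 (1.11 against 0.05 to 0.16). Replicate 4 stood apart for Derl3 (0.56 against 0.91 to 0.95), Mest (0.99 against 0.72 to 0.75) and Ppp1r15b (0.95 against 1.32 to 1.39).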

How the results depend on the processing

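Over the alternatives the count of higher genes ranged from 1297 to 1870 and that of lower genes from 1992 to 2809. Leaving out 1 replicate gave 1297 to 1535 higher and 2182 to 2660 lower genes. Of the 1651 higher genes 1633, and of the 2653 lower genes 1979, also passed after quantile normalization, which moved the median difference to -0.07. Median centring gave 1851 higher and 2392 lower genes (43.6% higher). The AP20187 difference was more positive than that of diet in 1286 to 1504 genes and more negative in 1806 to 2468. Of 230 named genes 215 kept their call and direction throughout. Of 3680 recomputed values 32 no longer passed, 8 newly passed and 1 changed sign, that of Pex16 with the probe set of smallest spread (0.038, adjusted p = 0.839 by limma). The lists held less well than the named genes. Under every alternative, 3 of 44 list medians and 60 of 88 counts of list members were scored as unchanged. After quantile normalization alone, 25 list medians and 18 counts were scored as changed. The sign of a list's median turned in several lists. The eIF2 median turned positive after quantile normalization (0.0453) and median centring (0.0361). It also did so without untreated replicate 4 (range without 1 replicate -0.106 to 0.0553). The cytokine median turned negative without untreated replicate 3 or 4 (range -0.0594 to 0.0923). That of the BCL2 family turned positive after quantile normalization (0.0325). The spliceosome median turned positive after quantile normalization (0.0523), median centring (0.0422) or without AP20187 replicate 4 (range without 1 replicate -0.0421 to 0.0581). The hypoxia and peroxisome medians were below 0 in some fits without 1 replicate (lowest -0.0702 and -0.0588). The cause was not tested. Krt19 passed without AP20187 replicate 1 (-1.94, adjusted p = 0.0468 by limma). No paired analysis was possible because the replicate numbers follow accession order and pair no samples. With no detection calls, signal over background cannot be given, and ratios near 0.01 limit how far large changes can be sized.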
